A study of Mus musculus with 6 samples.

Results

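The genes described here are the 397 protein-coding genes of mouse chromosome 11 that start from 60 to under 80 Mb (megabases) on GRCm38, of 21983 protein-coding genes in the count files. The interval was picked because these genes were low as a block in fx/fx tumors. Its genotype difference and its values per library are therefore given as a description, without a test. RNA was sequenced from 6 tumor libraries, 3 labelled CdGAP wt/wt (wt1, wt2 and wt3) and 3 labelled CdGAP fx/fx (fx1, fx2 and fx3). All 6 tumors came from NIC+ mice, so wt/wt and fx/fx tumors alike carried that transgene, which uses the promoter of mouse mammary tumor virus to make activated ErbB2 (Neu), a growth factor receptor, and Cre recombinase in mammary epithelial cells. In fx/fx mice both copies of Arhgap31, the gene of the GTPase-activating protein CdGAP, carry sites that Cre can recombine, and other cells of the tumor are outside the reach of that promoter. Age and strain are not given in the sources used here. Nothing in the labels says that libraries of a genotype came from separate animals, so n counts libraries, and the source of their spread was not tested.

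This stretch of the chromosome is dense in genes and holds several with known roles in tumors. Trp53 encodes p53, which stops division or triggers cell death after DNA damage. Nf1 encodes neurofibromin, a GTPase-activating protein that switches off Ras, the small GTPase through which ErbB2 receptors signal. Map2k4 encodes a kinase that activates JNK and p38, and Ncor1 a corepressor that nuclear receptors recruit together with histone deacetylases. Among them lie housekeeping genes, including Polr2a, the largest subunit of RNA polymerase II, Prpf8, a core splicing factor, and Psmb6, a proteasome subunit, as well as clusters of olfactory receptor and muscle myosin genes.

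Of the 397 genes, 200 had a mean log2 CPM over 3 across the 6 libraries (log2 of counts per 1000000 counts with TMM-scaled library sizes and a prior count of 2), and these 200 carry the values below. The other 197 were at or under that level. They included 49 genes with 0 counts in every library, all 30 olfactory receptor genes, of which 29 were at 0, and all 6 muscle myosin genes. Of the latter, Myh4, Myh1 and Myh2, which encode heavy chains of skeletal muscle, measured 8.95, 1.34 and 0.937 CPM in fx2 and at most 0.536 CPM in any other library. Because 13 of the 200 reached the level through 1 genotype only (10 through wt/wt, and Hs3st3a1, Serpinf1 and Chrnb1 through fx/fx), the 200 are not all members.

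Promoters were compared because the members lie side by side and were low together. RefSeq windows (GRCm38.p6, 250 bases before to 50 after a start) matched 173 of the 200 genes, with 227 windows. Their median window held 23 CG dinucleotides at 62.0% G and C, against 21 and 61.3% for 10316 windows of 8006 expressed protein-coding genes and 7 and 52.7% for 32851 windows of the whole table. The letters TATAAA, on either strand, stood in 3.96% of the members' windows, in 6.70% of those of expressed genes and in 13.6% of all windows. CCAAT stood in 33.0%, 37.4% and 37.4%, and GGGCGG in 71.4%, 65.2% and 35.7%, in the same order. The members' windows were thus close to those of other expressed genes and far richer in CG than the table as a whole.

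Below are 3 of these windows, printed 5′ to 3′ with each CG dinucleotide in capitals: that of Trp53, the best known gene of the interval, with 10 CG; that of Cpd, a gene with low values in fx1 and fx3, with 20 CG; and that of Hs3st3a1, the gene with the largest positive difference, with 23 CG. They lie at chr11:69580109-69580408 (plus strand), chr11:76846959-76847258 (minus strand) and chr11:64435082-64435381 (plus strand).
Trp53: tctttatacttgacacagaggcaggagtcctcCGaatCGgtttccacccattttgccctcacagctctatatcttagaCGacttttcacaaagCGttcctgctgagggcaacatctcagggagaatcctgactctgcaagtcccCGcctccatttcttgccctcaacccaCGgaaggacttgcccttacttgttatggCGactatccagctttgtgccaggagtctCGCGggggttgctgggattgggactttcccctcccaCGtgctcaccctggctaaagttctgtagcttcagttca
Cpd: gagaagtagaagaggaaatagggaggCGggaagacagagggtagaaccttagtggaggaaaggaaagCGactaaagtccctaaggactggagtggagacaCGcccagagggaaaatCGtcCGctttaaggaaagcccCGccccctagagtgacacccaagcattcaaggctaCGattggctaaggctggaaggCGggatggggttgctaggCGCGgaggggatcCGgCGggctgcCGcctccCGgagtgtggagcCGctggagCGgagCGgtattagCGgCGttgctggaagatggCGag
Hs3st3a1: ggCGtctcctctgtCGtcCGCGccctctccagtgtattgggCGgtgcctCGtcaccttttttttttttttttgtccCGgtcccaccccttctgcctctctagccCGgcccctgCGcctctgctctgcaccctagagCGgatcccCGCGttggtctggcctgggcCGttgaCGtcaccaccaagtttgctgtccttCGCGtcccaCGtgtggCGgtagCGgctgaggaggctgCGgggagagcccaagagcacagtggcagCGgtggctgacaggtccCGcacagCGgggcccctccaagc
CCAAT was found in all 3 windows, GGGCGG in those of Cpd and Hs3st3a1, and TATAAA in that of Trp53. The window of Trp53 also overlaps the first of 2 windows of Wrap53, on the other strand (chr11:69580201-69580500), since both genes start within 104 bases of each other. A match is a description of letters and not a binding site.

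The libraries held between 36732137 (fx2) and 53606276 (fx1) counts, with 1.81% to 2.93% of counts from mitochondrial genes. Arhgap31, the targeted gene, measured 664, 433 and 549.8 CPM in wt1 to wt3 and 156, 44.1 and 116 CPM in fx1 to fx3, without overlap (edgeR adjusted p = 0.153, DESeq2 adjusted p = 3.2e-05). All 9 luminal epithelial markers were detected, summing to between 4040 and 5395 CPM. The 12 fibroblast markers summed to 348 to 609 CPM in wt/wt and 937 to 1708 CPM in fx/fx, and the 10 macrophage markers to 602 to 780 CPM in wt/wt and 796, 933 and 417 CPM across fx1 to fx3. Their part in the results was not tested. In bulk tumor RNA, fewer cells of a type and less RNA per cell cannot be told apart.

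The interval was low in fx1 and fx3 and near the wt/wt level in fx2. For each gene and library the log2 CPM was set against the mean of the 3 wt/wt libraries, and this deviation is the scale used from here on. The median deviation over the 200 genes was -0.02 in wt1, -0.06 in wt2 and 0.08 in wt3. It was -0.62 in fx1, -0.04 in fx2 and -0.83 in fx3, which correspond to 65.0%, 97.3% and 56.3% of the wt/wt level. The fx2 median therefore lay among the wt/wt values, and those of fx1 and fx3 lay well under them. All 3 fx/fx values share the same wt/wt baseline.

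Averaged by genotype, the median fx/fx minus wt/wt difference was -0.51, or 70.3% of the wt/wt level. That average stands for no single tumor, since the SD of the 3 library medians was 0.41 in fx/fx and 0.07 in wt/wt. Without fx2 the difference was -0.71. Gene by gene, the median of fx3 minus fx1 was -0.29, that of fx1 minus fx2 was -0.54, and that of fx3 minus fx2 was -0.73. The fx3 value was under the fx1 value for 149 of the 200 genes (47.3% of 9991 protein-coding genes at this level).

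The middle 50% of the 200 genes spanned 0.61 in fx1, 0.35 in fx2, 0.46 in fx3, and 0.18 to 0.29 in the wt/wt libraries. On the other chromosomes (9152 genes) the same span was 0.70 in fx1, 0.48 in fx2 and 0.51 in fx3, and 0.20 to 0.36 in wt/wt. Genes of the interval therefore scattered around their lowered median no more than genes elsewhere scattered around 0. The low values were found on both strands, with fx3 medians of -0.85 for 103 plus-strand genes and -0.82 for 97 minus-strand genes. In fx1 the same medians were -0.57 and -0.66. In fx3 the 50 members of lowest level and the 50 of highest level had medians of -0.84 and -0.84, and in fx1 -0.49 and -0.71.

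**Figure D1:**
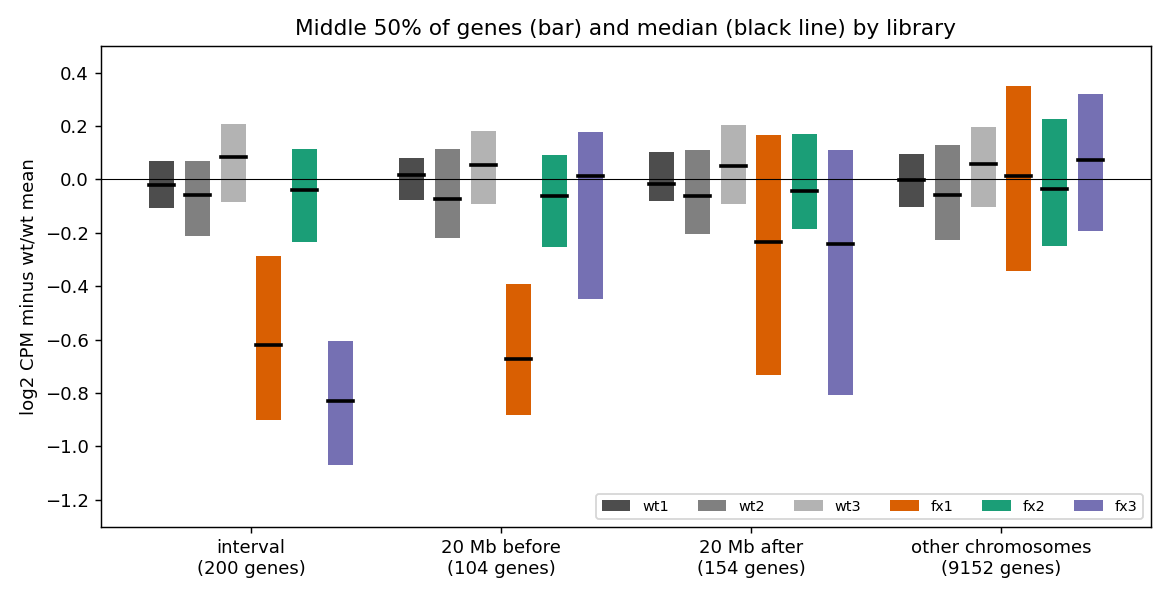
Deviation from the wt/wt mean (log2 CPM) by library, for the interval, the 20 Mb of chromosome 11 before and after it, and all other chromosomes. Bars span the middle 50% of genes and black lines are medians. In the interval fx1 and fx3 sit at -0.62 and -0.83 while fx2 sits at -0.04 with the wt/wt libraries. In the 20 Mb before it fx1 is low and fx3 is not.

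The genes counted one by one gave the same picture. In fx3, 179 of the 200 genes lay below all 3 wt/wt libraries, where 26.0% of 9991 protein-coding genes at this level did. In fx1 the number was 151 (35.7% of all) and in fx2 it was 62 (31.8% of all). Above all 3 wt/wt libraries lay 15 genes in fx1 (32.4% of all) and 4 in fx3 (34.1% of all). Both fx1 and fx3 lay below every wt/wt library for 146 genes (17.4% of all), and for 89 of these fx2 did not (7.67% of all). All 3 fx/fx libraries lay below all 3 wt/wt libraries for 57 genes (9.76% of all) and above them for 1 (8.55% of all). Since the interval was picked on these values, the shares are printed for scale only. The 57 genes became 146 without fx2 and 91 without wt2.

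With both genotypes taken as groups, the count depended on the threshold. edgeR called 0 of the 294 members that it tested at an adjusted p under 0.05 (0.00% of 16752 genes), and had 66 members lower (6.04% of all) and 10 higher (8.18% of all) at an unadjusted p under 0.05. DESeq2 had 16 lower (1.95% of all) and 7 higher (3.01% of all). These counts describe the contrast used to pick the interval.

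The block of low genes was longer than the interval. In fx3, the run of neighbouring genes that best fitted a single lowered level began with Zfp39 (chromosome 11, start 58888153) and ended with Tom1l1 (start 90643465), over 287 genes and 31.8 Mb. Its median was -0.82, or 56.6% of the wt/wt level, against 0.07 for the other genes searched from 40 to 100 Mb. The interval of 60 to 80 Mb therefore lay wholly inside it. Searching all of chromosome 11 gave the same first and last gene in fx3.

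The proximal edge in fx3 was abrupt. The last 10 measured genes before the run, from Sap30l to Sh3bp5l, had a median of -0.01 in fx3, and the first 10 inside, from Zfp39 to Jmjd4, had -0.76 with all 10 under -0.30. In the same order the medians were -0.74 and -0.58 in fx1, and -0.03 and -0.24 in fx2. Sh3bp5l (start 58330724) measured 67.4, 55.4 and 59.8 CPM in wt/wt and 38.2, 50.4 and 57.1 CPM across fx1 to fx3, so it was within the wt/wt range in fx3 and below it in fx1. Zfp39, a zinc finger gene, measured 13.1, 14.8 and 12.3 CPM in wt/wt and 6.68, 10.2 and 8.03 CPM across fx1 to fx3, all below wt/wt. The exceptions before the edge were Igtp and Irgm2, interferon-inducible GTPases, at -1.51 and -1.42 in fx3. Fitting by least squares moved the first gene to Igtp, at 58.2 Mb.

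The distal edge fell between the same pair of measured genes in fx1 and fx3. Tom1l1, an adaptor that binds Src family kinases, measured 104, 108 and 118 CPM in wt/wt and 60.1, 103 and 64.3 CPM across fx1 to fx3. It was thus low in fx1 and fx3 and just under wt/wt in fx2. The next measured gene, Utp18 (start 93859243), part of the complex that processes ribosomal RNA, measured 17.2, 15.03 and 28.1 CPM in wt/wt and 24.5, 18.8 and 16.4 CPM in fx/fx, and the genotypes overlapped. The last 10 genes of the run, from Msi2 to Tom1l1, had medians of -0.51 (fx1), 0.05 (fx2) and -0.74 (fx3), and the next 10, from Utp18 to Epn3, had -0.04, -0.07 and 0.09. With fx1 set against wt1 alone and fx3 against wt3 alone, which share no library, the last gene was Tom1l1 in fx1 and Utp18 in fx3.

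In fx1 the low run had no proximal edge in the region searched. It began at the first gene searched, Mat2b (start 40679314), and held 375 genes with a median of -0.66 against 0.08 outside. Over the whole chromosome the 216 measured genes before Zfp39 had a median of -0.63 in fx1 and 0.06 in fx3, and the 324 after Tom1l1 had 0.05 and 0.07. So fx1 was low from the first 5 Mb (-0.57, 28 genes) to Tom1l1, and fx3 only between Zfp39 and Tom1l1. Searching all of chromosome 11 in fx1 returned the distal stretch, Utp18 to Tbcd, at 0.06 against -0.65 for the rest. In the other 4 libraries the best runs were shallow, differing from the remaining genes by between -0.07 and 0.26.

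**Figure D2:**
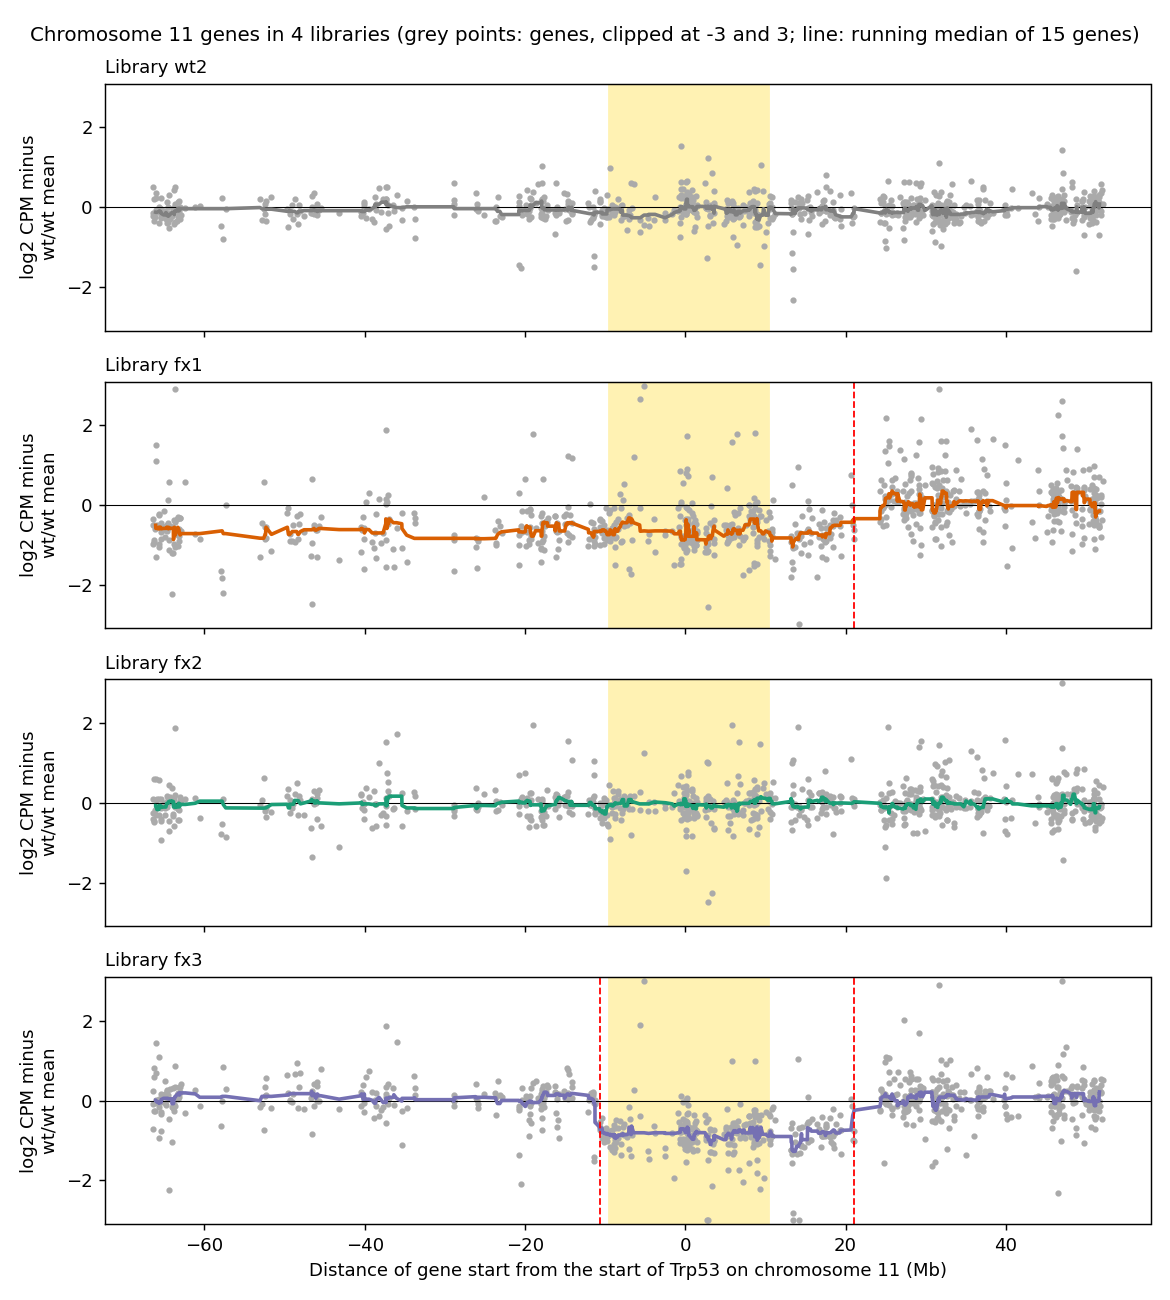
Deviation from the wt/wt mean (log2 CPM) of each measured gene along chromosome 11 in wt2, fx1, fx2 and fx3, against its distance from the start of Trp53 in Mb. Points are clipped at -3 and 3, lines are running medians of 15 genes, the shaded band is the interval, and dashed lines mark the first and last gene of the low run. The line of fx3 drops only inside its edges, that of fx1 is low from the left end to the same right edge, and those of wt2 and fx2 stay near 0.

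Within the interval every 5 Mb bin was low in fx1 and fx3. Bins of 2 Mb varied more, from -0.38 (62 to 64 Mb) to -0.84 (72 to 74 Mb) in fx1. In fx3 the same bins were at -0.65 and -0.98, again the ends of the range. In fx3 the medians of the 4 bins of 5 Mb were -0.86 (37 genes), -0.75 (50 genes), -0.96 (50 genes) and -0.81 (63 genes), in order from 60 Mb. In fx1 they were -0.54, -0.63, -0.79 and -0.54, and in fx2 between -0.08 and -0.01. The next bins in fx3 were -0.90 from 80 to 85 Mb, -0.80 from 85 to 90 Mb and 0.06 from 90 to 95 Mb. Before the interval, the bin from 55 to 60 Mb, which holds the proximal edge, was at -0.49 in fx3.

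The low values went on across the borders set by the rule. Med9 (start 59948206), a Mediator subunit just outside, measured 37.7, 37.3 and 40.2 CPM in wt/wt and 21.9, 25.4 and 21.7 CPM across fx1 to fx3, and was thus low in fx2 as well. Rai1, just inside, was at -0.20 in fx1 and -0.87 in fx3. At the other border Suz12, a subunit of the Polycomb complex that methylates histone H3, was inside at -0.91 in fx1 and -0.93 in fx3, and Crlf3, just outside, was at -0.19 and -0.34. Erbb2 itself (start 98412470) lies beyond the distal edge. It measured 1683, 2360 and 950 CPM in wt/wt and 3742, 1715 and 2290 CPM across fx1 to fx3, and the genotypes overlapped (edgeR adjusted p = 0.546). How the transgene and the mouse gene share these reads cannot be told apart in the gene counts.

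**Figure D3:**
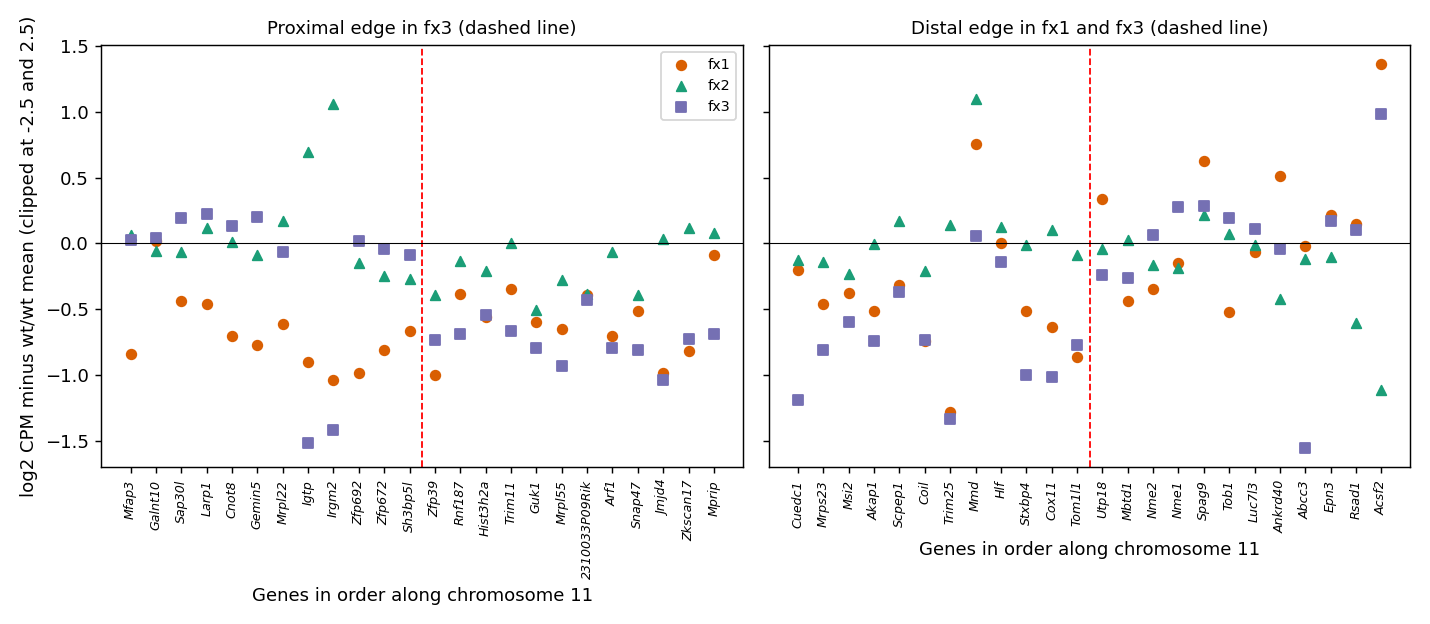
Deviation from the wt/wt mean (log2 CPM) of the 12 measured genes on each side of the proximal edge of fx3 (left) and of the distal edge of fx1 and fx3 (right), in chromosome order. At the left edge fx3 goes from near 0 to about the level of the run while fx1 is low on both sides. At the right edge both leave the low level, and fx2 stays near 0 on most genes.

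Genome-wide, other 20 Mb bins were as low. Among 137 bins with at least 15 measured genes, the interval ranked 4 from the lowest in fx3, where the lowest bin, on chromosome 4 from 140 to 160 Mb, was at -0.90. In fx1 it ranked 11, with the lowest bin on chromosome 4 from 60 to 80 Mb at -0.76. In fx2 it ranked 77. Every bin of chromosome 4 was low in both libraries, between -0.76 and -0.60 in fx1 and between -0.90 and -0.65 in fx3. Every bin of chromosome 10 was between -0.72 and -0.45 in fx1 and between -0.04 and 0.14 in fx3. The low level in fx1 and fx3 was thus not particular to the interval.

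Trp53 (ENSMUSG00000059552, chromosome 11, 69580359 to 69591873, plus strand) measured 51.9 CPM in wt1, 48.6 in wt2 and 62.2 in wt3. In fx/fx it measured 41.8 CPM in fx1, 57.9 in fx2 and 37.8 in fx3. Libraries fx1 and fx3 lay under all 3 wt/wt values and fx2 lay among them, so the genotypes overlapped. At 77.1% of wt/wt in fx1 and 69.8% in fx3, Trp53 was above the median of the interval in both. By genotype the mean was 54.2 ± 7.11 in wt/wt against 45.8 ± 10.6 CPM in fx/fx (SD, n = 3 each).

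Nf1 (ENSMUSG00000020716, 79339693 to 79581612, plus strand) varied the most of the 4 known tumor genes. Its level was 795, 276 and 715 CPM across wt1 to wt3 and 300.0, 758 and 142 CPM across fx1 to fx3. Library wt2 was as low as fx1, although the median of the interval in wt2 was -0.06, and fx3 was the lowest of all at 23.8% of the wt/wt level. The wt/wt mean was 595 ± 279 CPM and the fx/fx mean 399.9 ± 320.1 CPM (SD, n = 3 each).

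Map2k4 (65688243 to 65788297, minus strand) measured 66.4, 49.7 and 72.1 CPM in wt/wt and 48.7, 63.0 and 39.9 CPM across fx1 to fx3. Its fx1 value lay just under wt2. Ncor1 (62316426 to 62458541, minus strand) measured 223, 190.1 and 249 CPM in wt/wt and 155, 208 and 117 CPM across fx1 to fx3, with fx1 and fx3 clearly under the wt/wt range and fx2 inside it. For both genes, as for Trp53, fx3 was the lowest library.

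The list of tumor suppressors and growth inhibitors of the interval holds these 4 genes too. Of its 15 genes 11 were measured, with medians of -0.50 (fx1), 0.10 (fx2) and -0.86 (fx3). Both fx1 and fx3 lay below every wt/wt library for 7 of the 11 (146 of the 200 members, 17.4% of 9991 protein-coding genes). Mybbp1a, a nucleolar protein that binds Myb, measured 183, 177 and 192 CPM in wt/wt and 100.4, 166 and 101 CPM across fx1 to fx3, without overlap. Llgl1, which sets the polarity of epithelial cells, measured 68.3, 57.6 and 71.6 CPM in wt/wt and 46.2, 71.1 and 27.1 CPM in fx/fx, with overlap through fx2. Xaf1, an interferon-inducible antagonist of apoptosis inhibitors, spread from 11.4 (wt2) to 99.2 CPM (wt1) within wt/wt alone and was at 2.86 CPM in fx3. Beside it, 10 interferon-stimulated genes outside the interval, listed after the values were seen, had medians of 2.70 in wt1 and -3.39 in fx3, and their part in the value of Xaf1 was not tested.

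The genes next to Trp53 had lower medians than Trp53 itself in fx1 and fx3. Of 25 genes listed around it 17 were measured, with medians of -0.79 (fx1), -0.04 (fx2) and -0.79 (fx3). Wrap53, which starts 104 bases from Trp53 on the other strand and encodes a telomerase cofactor, measured 15.4, 13.7 and 14.5 CPM in wt/wt and 6.98, 12.2 and 6.26 CPM across fx1 to fx3. Its deviations were -1.05 in fx1 and -1.21 in fx3, where those of Trp53 were -0.37 and -0.51. Kdm6b, a demethylase of histone H3, measured 160, 201 and 142 CPM in wt/wt and 79.5, 197 and 109 CPM across fx1 to fx3. Polr2a measured 214, 267 and 169 CPM in wt/wt and 122, 200.5 and 148 CPM in fx/fx. Both again had fx2 inside the wt/wt range and fx1 and fx3 under it. Zbtb4, a zinc finger repressor, was lower in fx3 (73.0 CPM) than in fx1 (113 CPM), against 136 to 177 CPM in wt/wt. The exceptions in this neighbourhood were Chd3, a remodeling ATPase, at 0.55 in fx1 and -0.04 in fx3, and the overlapping genes Tnfsf13 and Tnfsf12, whose reads cannot be fully told apart.

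Genes that share a start region can be set side by side. There were 19 pairs of measured members on opposite strands whose starts lay within 1000 bases, and in 18 of them both genes were below the wt/wt mean in fx1 and in fx3. Of the 200 members as a whole 174 were below it in both libraries (31.1% of 9991 protein-coding genes), so the count of pairs shows nothing beyond the interval. The exception was Nlgn2, a neuronal adhesion gene at 0.89 in fx1, beside Tmem256. The median absolute difference within a pair was 0.20 in fx3 and 0.33 in fx1. Wrap53 and Trp53 differed by more than that in both libraries.

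The transcription, splicing and translation core was low along with the rest of the interval. Of 28 listed genes 27 were measured, all 27 were below the wt/wt mean in both fx1 and fx3, and 26 were below every wt/wt library in both. Over the 200 members the counts were 174 and 146, and over 9991 genes the shares were 31.1% and 17.4%. The medians were -0.73 in fx1, -0.04 in fx2 and -0.83 in fx3. Eif5a, a translation elongation factor, measured 589, 578 and 646 CPM in wt/wt and 319, 586 and 381 CPM across fx1 to fx3. Eif4a1, the helicase that opens mRNA for the ribosome, measured 359, 347 and 469.8 CPM in wt/wt and 213, 463 and 273 CPM in fx/fx. In both, fx2 was within the wt/wt range. Taok1, a kinase also listed here, was the member nearest to wt/wt in fx1, at -0.01.

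The ribosomal protein genes Rpl26 and Rpl23a were lower in fx1 than in fx3. Rpl26 measured 386, 428 and 464 CPM in wt/wt and 153, 401 and 218 CPM across fx1 to fx3. Rpl23a measured 371, 392 and 386 CPM in wt/wt and 133, 367 and 181 CPM in fx/fx. Both have near-identical processed copies in the genome, so their counts are uncertain. The 78 ribosomal protein genes outside the interval had medians of -0.88 (fx1), -0.16 (fx2) and -0.05 (fx3). How far the general value in fx1 adds to that of these members was not tested.

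Cell cycle and DNA maintenance genes were low as well, with 14 of 15 measured and medians of -0.82 (fx1), -0.03 (fx2) and -0.67 (fx3). Pafah1b1 and Ndel1 encode partners of dynein in the movement of nuclei and spindles. Pafah1b1 measured 272, 265 and 281 CPM in wt/wt and 177, 272 and 173 CPM across fx1 to fx3. Rpa1, which coats single-stranded DNA, measured 120, 107 and 121 CPM in wt/wt and 65.5, 112 and 72.9 CPM in fx/fx. Blmh, a cysteine protease that inactivates bleomycin, measured 123, 107 and 113 CPM in wt/wt and 64.8, 114 and 74.98 CPM in fx/fx. The same order held for all 3: fx1 and fx3 were under the wt/wt range and fx2 was inside it. Aurkb, the mitotic Aurora B kinase, varied within wt/wt, from 23.2 to 53.7 CPM, and was at 12.4, 34.3 and 21.8 CPM in fx/fx. Spag5, a spindle protein, was the exception, at 0.01 in fx1.

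Among proteasome, ubiquitin and vesicle traffic genes 23 of 25 were measured, with medians of -0.61 (fx1), -0.05 (fx2) and -0.86 (fx3). Below every wt/wt library in both fx1 and fx3 lay 17 of the 23 (146 of the 200 members, 17.4% of 9991 protein-coding genes). Cpd, a carboxypeptidase of the trans-Golgi network, was far below the rest. It measured 3791, 2160 and 3137 CPM across wt1 to wt3 and 867, 2614 and 719 CPM across fx1 to fx3, so fx1 and fx3 were at 28.6% and 23.7% of wt/wt while fx2 was inside the range. Rnf167, a ubiquitin ligase of endosomes and lysosomes, measured 168, 161 and 167 CPM in wt/wt and 81.2, 142 and 84.7 CPM in fx/fx, without overlap, although it overlaps Slc25a11 on the other strand. Psmb6 measured 147, 128 and 137 CPM in wt/wt and 70.2, 129.95 and 75.5 CPM in fx/fx. Rabep1, an effector of Rab5 on early endosomes, was at -0.37 in fx1 and -0.57 in fx3. Rab11fip4, a partner of the recycling GTPase Rab11, was at -0.38 and -0.29, and for both the lowest wt/wt library, wt2, lay below fx1.

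Further members with known roles in cell shape and junctions are given by gene. Myo1c, a membrane-bound myosin, measured 298, 322 and 343 CPM in wt/wt and 183, 277 and 147 CPM across fx1 to fx3. Pfn1, the actin-binding protein profilin, measured 346, 344 and 395 CPM in wt/wt and 263, 343 and 281 CPM in fx/fx. Neither overlapped between genotypes, though fx2 was close to wt/wt in both. Traf4, an adaptor at cell junctions, measured 242, 219 and 267 CPM in wt/wt and 88.2, 268 and 119 CPM in fx/fx. Kif1c, a kinesin, measured 337, 179 and 338 CPM in wt/wt and 195, 265 and 137 CPM in fx/fx. Git1, a scaffold of focal adhesions, and Flii, an actin-binding gelsolin relative, were at 0.01 and -0.06 in fx1 and at -0.38 and -0.61 in fx3.

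Metabolic and mitochondrial genes were low in fx1 and fx3 and also somewhat low in fx2, with medians of -0.78, -0.94 and -0.28 over 22 measured of 31. All 3 fx/fx libraries lay below wt/wt for 12 of the 22 (57 of the 200 members, 9.76% of 9991 protein-coding genes). Srebf1, the transcription factor that switches on fatty acid synthesis genes, measured 1836, 3553 and 886 CPM in wt/wt and 958, 963 and 796 CPM across fx1 to fx3. The values in fx/fx were alike and wt3 lay among them, so the genotypes overlapped. Alkbh5, an RNA demethylase, measured 253, 258 and 277 CPM in wt/wt and 173, 320.2 and 145 CPM in fx/fx, and Pitpna, a lipid transfer protein, 230.3, 174 and 249.9 CPM and 141, 211 and 128 CPM. Slc46a1, the proton-coupled folate transporter, measured 36.1, 28.4 and 62.1 CPM in wt/wt and 14.3, 23.3 and 11.3 CPM in fx/fx, without overlap.

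**Figure D4:**
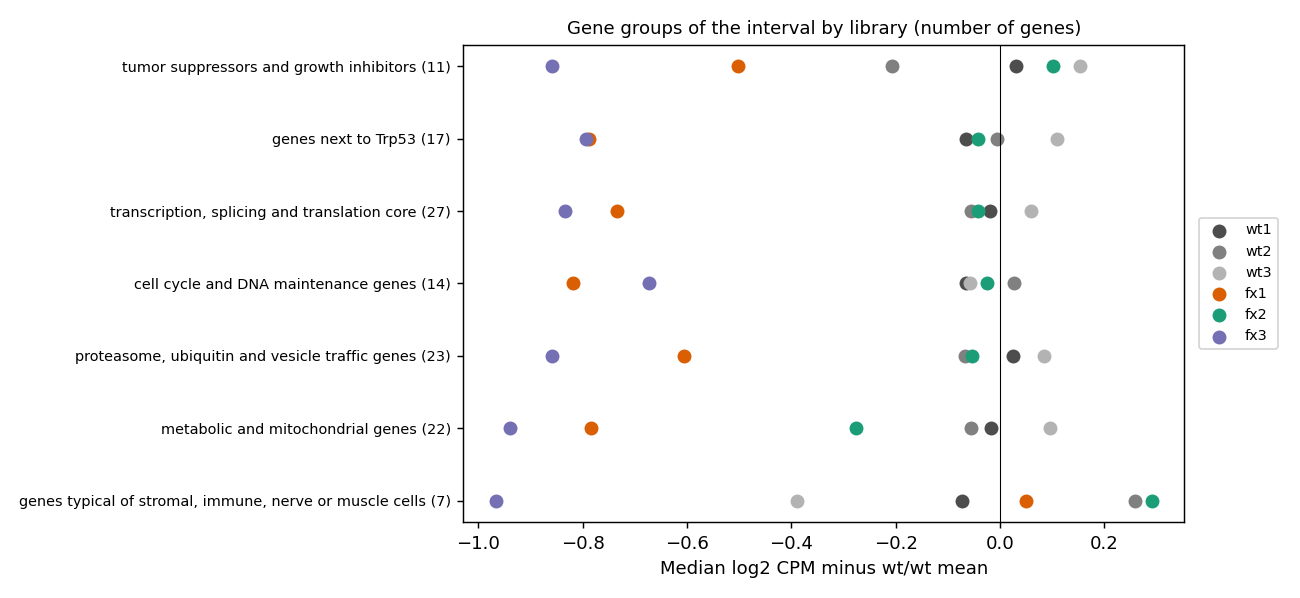
Median deviation from the wt/wt mean (log2 CPM) of 7 gene groups of the interval, 1 point per library, with the number of measured genes in brackets. In 6 groups fx1 and fx3 lie left of the other libraries. In the group of stromal, immune, nerve and muscle genes, with 7 genes, only fx3 does, at -0.97.

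Genes typical of stromal, immune, nerve or muscle cells were mostly unmeasured, with 7 of 38 over the level used. Their medians were 0.05 in fx1, 0.29 in fx2 and -0.97 in fx3. Cd68, a lysosomal protein of macrophages, measured 18.7, 24.2 and 21.3 CPM in wt/wt and 20.4, 28.8 and 10.9 CPM across fx1 to fx3. Cxcl16, a chemokine of macrophages and dendritic cells, measured 20.1, 25.5 and 13.2 CPM and 19.6, 23.2 and 9.27 CPM. Both were low in fx3 alone, which was also the library with the lowest summed macrophage markers, and the part of those cells was not tested. Pmp22, a myelin protein also made by fibroblasts, was at 1.20 in fx1, 0.17 in fx2 and 0.26 in fx3. Lgals9, galectin-9, spread from 20.9 (wt2) to 237 CPM (wt1) within wt/wt and was at 12.3 CPM in fx3.

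The lowest members by genotype difference included genes low in all 3 fx/fx libraries. Ggt6, a gamma-glutamyltransferase relative, measured 40.5, 23.3 and 12.5 CPM in wt/wt and 3.80, 4.02 and 1.43 CPM across fx1 to fx3. Trim16, a tripartite motif protein, measured 23.4, 41.6 and 20.8 CPM in wt/wt and 8.15, 15.5 and 10.4 CPM in fx/fx. Ankrd13b, an ankyrin repeat protein that binds ubiquitin, measured 206, 168 and 213 CPM in wt/wt and 63.1, 124 and 65.4 CPM in fx/fx. These 3 and Slc46a1 did not overlap between genotypes, and Cpd, the other of the 5 lowest, did through fx2. Ggt6 was low in fx2 to the same degree as in fx1 (-2.49 and -2.57), unlike the interval as a whole.

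Only 6 of the 200 genes were at or above the wt/wt mean in both fx1 and fx3, where 37.1% of all genes were: Hs3st3a1, Hs3st3b1, Serpinf1, Aldoc, Chrnb1 and Pmp22. Of these, Hs3st3a1, Serpinf1 and Chrnb1 had a wt/wt mean under the level used and were among the 200 through their fx/fx values, so the count rests partly on the filter. Hs3st3a1 (chromosome 11, 64435332 to 64522841, plus strand), which adds sulfate to heparan sulfate chains, measured 3.39, 4.45 and 14.9 CPM in wt/wt and 143, 14.5 and 74.8 CPM across fx1 to fx3. Hs3st3b1 measured 96.8, 84.1 and 145 CPM in wt/wt and 666, 92.7 and 397 CPM in fx/fx. Both were high in fx1 and fx3, the libraries in which their neighbours were low. In fx2 Hs3st3b1 was within the wt/wt range, and Hs3st3a1 was near wt3 and above wt1 and wt2. The catalytic parts of this pair are nearly identical, and reads could be lost or shared between them. Aldoc, the glycolytic enzyme aldolase C, measured 527, 347 and 635 CPM in wt/wt and 1712, 626 and 971 CPM in fx/fx, again with fx2 among the wt/wt values.

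Serpinf1 and Chrnb1 differed from that pattern. Serpinf1, the secreted inhibitor of vessel growth PEDF, made by fibroblasts and adipocytes, measured 8.29, 7.17 and 5.13 CPM in wt/wt and 20.1, 26.1 and 13.4 CPM across fx1 to fx3. All fx/fx libraries lay above all wt/wt libraries, which held for no other of the 200 members (8.55% of 9991 protein-coding genes). It also held for 10 of the 197 members at or under the level used. The fibroblast markers, at medians of 1.44, 1.77 and 0.93 in fx1, fx2 and fx3, stood in the same order. The part of fibroblasts in this value was not tested. Chrnb1, a muscle acetylcholine receptor subunit, was at 25.7 CPM in fx1 only, and at 6.05 to 12.1 CPM in the other 5 libraries.

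**Figure D5:**
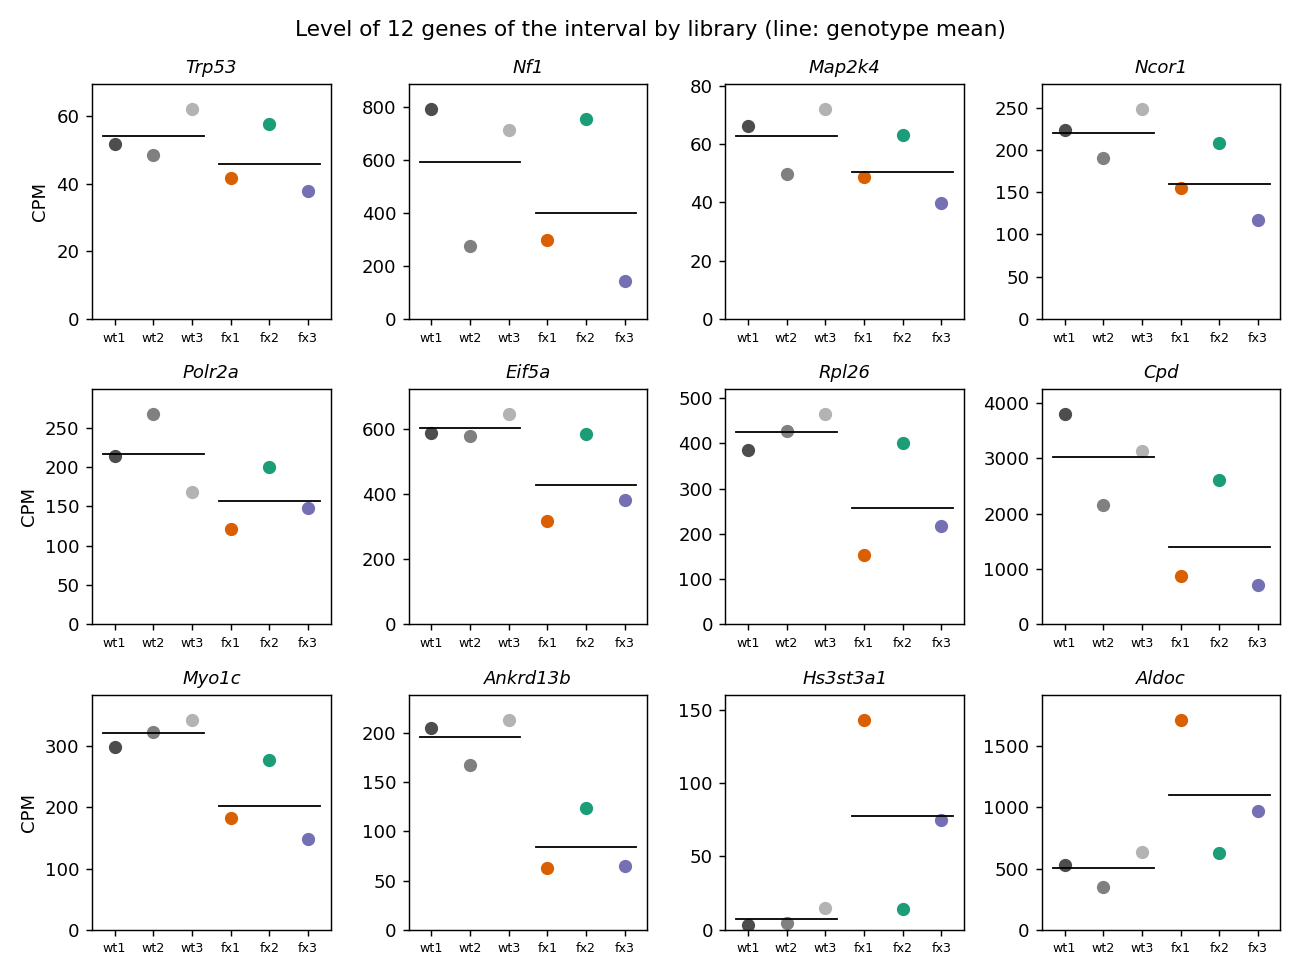
Level in CPM of 12 genes of the interval in each library, with the mean of each genotype as a line and each axis starting at 0. For Trp53, Ncor1, Polr2a, Eif5a, Rpl26 and Cpd, fx1 and fx3 are below all 3 wt/wt points and fx2 is among them. Hs3st3a1 and Aldoc are highest in fx1 and fx3.

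Members under the level used were less uniform. The 68 with a mean log2 CPM from 0 to 3 had medians of -0.05 (fx1), 0.18 (fx2) and -0.53 (fx3), so in fx1 these weakly expressed genes did not share the low level. The 12 non-coding genes of the interval with a mean log2 CPM over 0, looked at after the data were seen, had medians of -0.90 (fx1), -0.09 (fx2) and -0.75 (fx3).

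Genes that work with Trp53, Nf1 and Map2k4 but lie outside the interval were not part of the choice and were tested. Of 35 p53 target genes edgeR called 0, as it did over all 16752 genes, so this count shows nothing particular to the list. At an unadjusted p under 0.05 it had 2 lower (6.04% of all) and 0 higher (8.18% of all). The median log2 fold change was -0.08, near that of all 16752 genes (0.00). By library the medians were -0.20 (fx1), 0.17 (fx2) and -0.23 (fx3), and -0.09 to 0.08 in wt/wt. On all other chromosomes those of fx1 to fx3 were 0.01, -0.04 and 0.07. That comparison takes no account of where the 35 genes lie. The 20 Mb bins of chromosome 4 were low in fx1 and fx3, and those of chromosome 10 in fx1. The part of such bins in the medians of the p53 target genes was not tested. Under the wt/wt mean in both fx1 and fx3 lay 15 of the 35 (31.1% of 9991 protein-coding genes). DESeq2 called 2 of the 35, both lower (1.95% of all). They were Dcxr, a dicarbonyl reductase, at 20.7 ± 1.03 in wt/wt against 11.7 ± 1.85 CPM in fx/fx (SD, n = 3 per genotype; edgeR adjusted p = 0.206, DESeq2 adjusted p = 0.012), and Fas, a death receptor, at 9.60 ± 4.88 and 3.79 ± 0.962 CPM (edgeR adjusted p = 0.244, DESeq2 adjusted p = 0.046). Both were lower in 3 of 3 fx/fx libraries than in any wt/wt library, fx2 included. Rps27l, a ribosomal protein relative, measured 354 ± 56.8 and 234 ± 70.9 CPM (edgeR adjusted p = 0.369).

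Other negative regulators of Ras were compared in the same way. By genotype mean 9 of the 12 were higher in fx/fx and 3 lower. Under the wt/wt mean in both fx1 and fx3 lay 2 (31.1% of 9991 protein-coding genes). As over all genes, edgeR called 0 of these 12. It had 5 higher (8.18% of all) and 0 lower (6.04% of all) at an unadjusted p under 0.05. The list's median log2 fold change was 0.46. DESeq2 called 2 higher (3.01% of all). Rasa2, a Ras GTPase-activating protein, measured 8.34 ± 0.838 in wt/wt against 17.3 ± 4.31 CPM in fx/fx (n = 3 per genotype; edgeR adjusted p = 0.194, DESeq2 adjusted p = 0.0094). Rasal2, of the same family, measured 7.35 ± 2.68 and 22.9 ± 13.1 CPM (edgeR adjusted p = 0.217, DESeq2 adjusted p = 0.020). Dab2ip, another, measured 174 ± 45.3 and 328 ± 75.8 CPM (edgeR adjusted p = 0.219). All 3 were higher in 3 of 3 fx/fx libraries than in any wt/wt library. Some of their own surroundings stood high as well. The 20 Mb bin of Rasal2 (chromosome 1, 140 to 160 Mb) was at 0.61, 0.44 and 1.08 across fx1 to fx3. It also varied within wt/wt, at 0.40, -0.66 and 0.25 across wt1 to wt3. The bin of Dab2ip (chromosome 2, 20 to 40 Mb) was at 0.13, 0.40 and 0.04 across fx1 to fx3, and between -0.05 and 0.08 in wt/wt. That of Rasa2 (chromosome 9, 80 to 100 Mb) was at 0.19, 0.03 and 0.15, and between -0.09 and 0.14 in wt/wt. The part of these bins in the values of Rasal2, Dab2ip and Rasa2 was not tested.

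Of 13 measured partners of Map2k4 in the JNK and p38 pathways, edgeR called 0. Since it called 0 of all 16752 genes, this count shows nothing particular to the list. DESeq2 called 0 (1.95% of all lower and 3.01% higher). At an unadjusted p under 0.05 edgeR had 0 (6.04% of all lower and 8.18% higher). The median log2 fold change was -0.03, and the medians by library were -0.01 (fx1), 0.06 (fx2) and -0.02 (fx3). Spag9, a JNK scaffold that starts just beyond the distal edge at 93996091, measured 134 ± 12.5 in wt/wt against 175 ± 27.5 CPM in fx/fx (n = 3 per genotype; edgeR adjusted p = 0.396). Atf2, a transcription factor that JNK phosphorylates, and Map3k7, the kinase TAK1, had edgeR adjusted p-values of 0.429 and 0.520. Across fx1 to fx3 Atf2 was at 0.10, 0.51 and 0.34, and Map3k7 at -0.48, 0.015 and -0.96. The 20 Mb bin of Atf2 (chromosome 2, 60 to 80 Mb) was at 0.0055, 0.49 and 0.22. That of Map3k7 (chromosome 4, 20 to 40 Mb) was at -0.70, -0.004 and -0.88. The part of these bins in the values of both genes was not tested.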

How the data were processed

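Counts of read pairs per gene were deposited by the authors as whole numbers, not normalized. Per the file headers, featureCounts 1.6.0 counted them on Ensembl release 93 (GRCm38) with strand option 2; the submitters' processing notes name featureCounts 1.4.6 and STAR 2.5.1b. GENCODE M21 gave symbols for 54165 of 54232 identifiers. Reads with several alignments appear not to have been counted, so near-identical genes are less certain.

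All counts entered the library sizes (0 rows named no gene). CPM and log2 CPM (prior count 2, TMM) were computed with edgeR 4.0.16 (R 4.3.3). Genes kept by filterByExpr were tested with the robust quasi-likelihood test and Benjamini-Hochberg adjustment over all 16752 genes, with DESeq2 1.42.0 as an alternative. Edges were the run of at least 15 neighbouring genes (mean log2 CPM over 3, 40 to 100 Mb) whose own median, with 1 median outside, minimized absolute deviations from the wt/wt mean. Both steps were checked on simulated data. The members, lists and tests were chosen with earlier results of these data known.

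Named genes were Trp53, Nf1, Map2k4 and Ncor1; the genes beside each edge; the 5 highest and 5 lowest differences; up to 4 members of each list inside with the highest mean CPM; and up to 3 outside with the smallest edgeR p. Arhgap31, Erbb2, the genes beside the interval's borders, and Taok1, Chd3, Tnfsf12, Tnfsf13, Xaf1, Wrap53, Psmb6, Aurkb, Spag5, Git1, Flii, Igtp, Irgm2, Nlgn2 and Tmem256 were added, the listed exceptions after their values were seen. Of the other marker lists, 10 adipocyte genes had medians of 1.91, 3.71 and 2.21 in fx1, fx2 and fx3, 7 T cell genes -0.18, 0.31 and -0.93, 8 endothelial genes 1.09, 0.89 and 0.08, and 8 basal genes 1.21, 1.14 and 0.77. One gene list that the rule covers is not reported here as a group.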

Additional observations from a re-analysis of the deposited data

How the results depend on the processing

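With RLE size factors or a prior count of 0.5, the interval's values by library moved by less than the spread between wt/wt libraries. Centring on genes outside chromosome 11 gave -0.90 in fx3. The 12 non-coding genes gave -0.18 in wt1, -0.90 in fx1 and -0.75 in fx3. Leaving out 1 library at a time moved the genotype difference between -0.34 (without fx3) and -0.71 (without fx2). The 57 genes lower in all fx/fx libraries became 36 at a mean log2 CPM over 5, and 58 to 146 with 1 library left out. Over all genes edgeR called 0, and 38 without a filter on low counts, 0 to 2 with 1 library left out (2 without fx2), and DESeq2 called 831. The distal gene in fx1 was at 93.86 Mb by running median, and in fx3 at 93.86 Mb with the separate baselines. Over all of chromosome 11 the fx1 run was the higher distal stretch, 93.86 to 121.45 Mb. The non-coding genes, the separate baselines and the counts with 1 library left out for the 57 genes were added after the data were seen. The cause of these changes was not tested.

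Same-numbered libraries deviated with correlations of -0.085, -0.095 and 0.057, within the range of the other pairs (-0.222 to 0.279). The labels do not say that the numbers pair libraries. These correlations cannot exclude a pairing, since a shared litter or batch need not show in them. With the replicate number as a block, edgeR called 0 genes and the interval difference was -0.51. Between Tom1l1 and Utp18, and between Sh3bp5l and Zfp39, too few genes were expressed to place an edge more closely.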
